A study of Homo sapiens with 14 samples.

Results

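The endothelin system was followed here as 7 genes: the ligand genes EDN1, EDN2 and EDN3, the receptor genes EDNRA and EDNRB, and the converting enzyme genes ECE1 and ECE2. They are 7 of the 58825 gene identifiers counted, and 6 of them had at least 1 count in some library. The family was chosen by the EDN2 values in the comparison of GSK-J4 with GSK-J5 in OVCAR-3 at 72 h, so the values of that comparison are given as a description without a test. The study treated 3 human cell lines derived from ovarian cancers with GSK-J4, a cell-permeable inhibitor of the H3K27 demethylases KDM6A (UTX) and KDM6B (JMJD3), or with GSK-J5, an isomer of it that serves as the inactive control, both at 2.5 µM, and sequenced their RNA. The groups are OVCAR-3 with GSK-J4 and with GSK-J5 at 48 h (2 libraries each), and OVCAR-3, CAOV3 and SKOV3 with GSK-J4 and with GSK-J5 at 72 h (3 libraries each), which makes 22 libraries. Each line had its own growth medium, so line and medium cannot be told apart. No library without a compound is among the groups, and the labels do not say whether replicates were grown apart, so each p-value speaks to the scatter among libraries, which may be technical.

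Endothelins are small secreted peptides. Each is cut out of a long precursor, first by furin-type convertases into an inactive big endothelin and then by an endothelin-converting enzyme into the active peptide. The active peptide binds the G protein-coupled receptors EDNRA and EDNRB. EDNRA prefers endothelin-1 and endothelin-2 and is known for contraction of smooth muscle and for growth signals, whereas EDNRB binds all the endothelins alike and also clears endothelin-1 from the circulation. In the ovary, endothelin-2 is known as a peptide that granulosa cells make around ovulation, and in ovarian carcinoma endothelin-1 acting through EDNRA is a known autocrine growth loop. RNA levels do not report on peptide cleavage or release.

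Levels are CPM, counts scaled by library size with the TMM method of edgeR, and levels of different genes are compared only as CPM per kilobase of exon. Total counts ran from 24037007 to 37990707 per library, so the 3 counts that a count of 0 allows correspond to 0.079 to 0.12 CPM in a single library, which covers counting error only. Replicates 1 and 2 formed a first library set and replicate 3 a second one, for which the labels name another RNA kit and poly(A) selection. The second set stood apart for several of these genes. In OVCAR-3 at 72 h the mean EDN2 level of replicates 1 and 2 was 9.87 times that of replicate 3 with GSK-J4 and 4.93 times with GSK-J5. In SKOV3 the EDN1 level of replicates 1 and 2 was 4.41 times that of replicate 3 with GSK-J4 and 3.93 times with GSK-J5. The set was a covariate in the fits. Epithelial and ovarian carcinoma markers summed to between 6385 and 11044 CPM over the OVCAR-3 libraries and to between 6817 and 7462 CPM over the CAOV3 libraries, against 976 to 2006 CPM over the SKOV3 libraries, in which 2 of the 9 markers (MUC16 and WT1) averaged under 1 CPM. In CAOV3, WT1 had no count with GSK-J4 and 3 counts in all with GSK-J5.

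Of the ligand genes, EDN2 and EDN1 had reads and EDN3 had none. EDN2 lies on chromosome 1 at 41478775 to 41484673 on the minus strand of GRCh38 (GENCODE 29; ENSG00000127129.10), with 1639 bp of exon, and had 8319 counts over 18 of the 22 libraries. EDN1 lies on chromosome 6 at 12290363 to 12297194 on the plus strand (ENSG00000078401.7), with 2033 bp of exon, and had 4749 counts spread over all 22 libraries. Neither shares exon bases with another annotated gene. EDN3, the ligand known for its work with EDNRB in neural crest cells, is on chromosome 20 at 59300427 to 59325992 (ENSG00000124205.17), and no library held a count of it.

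Shown are the 250 bases before the RefSeq start of EDN2 and before the RefSeq start of EDN1 nearest to that of GENCODE 29. EDN2 and EDN1 were taken because they are the ligands whose RNA was present and rose with GSK-J4 in OVCAR-3 at 48 h. The EDN2 window is chr1:41484684-41484933 on the minus strand and the EDN1 window is chr6:12290111-12290360 on the plus strand, both on GRCh38.p14. Both are written 5′ to 3′ in the direction of transcription, and capitals mark matches to the motifs that were searched.
EDN2: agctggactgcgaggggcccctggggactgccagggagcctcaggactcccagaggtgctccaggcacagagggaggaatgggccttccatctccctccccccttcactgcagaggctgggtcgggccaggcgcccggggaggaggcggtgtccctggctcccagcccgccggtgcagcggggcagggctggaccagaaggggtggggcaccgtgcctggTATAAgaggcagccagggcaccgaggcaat
EDN1: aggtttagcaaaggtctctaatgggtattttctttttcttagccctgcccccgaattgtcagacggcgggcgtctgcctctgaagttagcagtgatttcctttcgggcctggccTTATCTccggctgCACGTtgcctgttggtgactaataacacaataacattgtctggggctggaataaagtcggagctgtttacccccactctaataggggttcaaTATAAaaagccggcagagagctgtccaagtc
Both strands were searched for 7 motifs: TATAA for the TATA box, AGATAA for zinc finger factors such as GATA2, ACGTG for the core of the hypoxia response element, TGANTCA for AP-1, TGACGTCA for the cyclic AMP response element, TGATGNAA for the ATF4 composite element and GGGANTTCC for NF-kB. Both windows hold TATAA, at bases -30 to -26 before EDN2 and -31 to -27 before EDN1, a motif present in 19.0% of the 34943 RefSeq promoter windows of this length. The EDN1 window also holds AGATAA on the minus strand at -136 to -131 (in 9.19% of all windows) and ACGTG on the minus strand at -123 to -119 (18.5%), and the EDN2 window holds no further match. The remaining motifs, found in 6.59% (TGANTCA), 1.63% (TGACGTCA), 3.15% (TGATGNAA) and 1.59% (GGGANTTCC) of windows, had no match in either. The EDN2 window is GC-rich, with 70.8% G and C and 10 CpG sites, against 49.2% and 9 for EDN1 and a median of 58.0% and 11 over all windows. RefSeq gives further EDN1 starts at 12288019 and 12290014. The window before 12288019 holds TATAA at -199 to -195 and ACGTG at -240 to -236 and -93 to -89, all on the minus strand. The window before 12290014 holds no match. RefSeq windows were matched for 5 of the 7 genes (EDN1, EDN2, EDNRA, EDNRB and ECE1). A match says only that the letters are there.

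**Figure D1:**
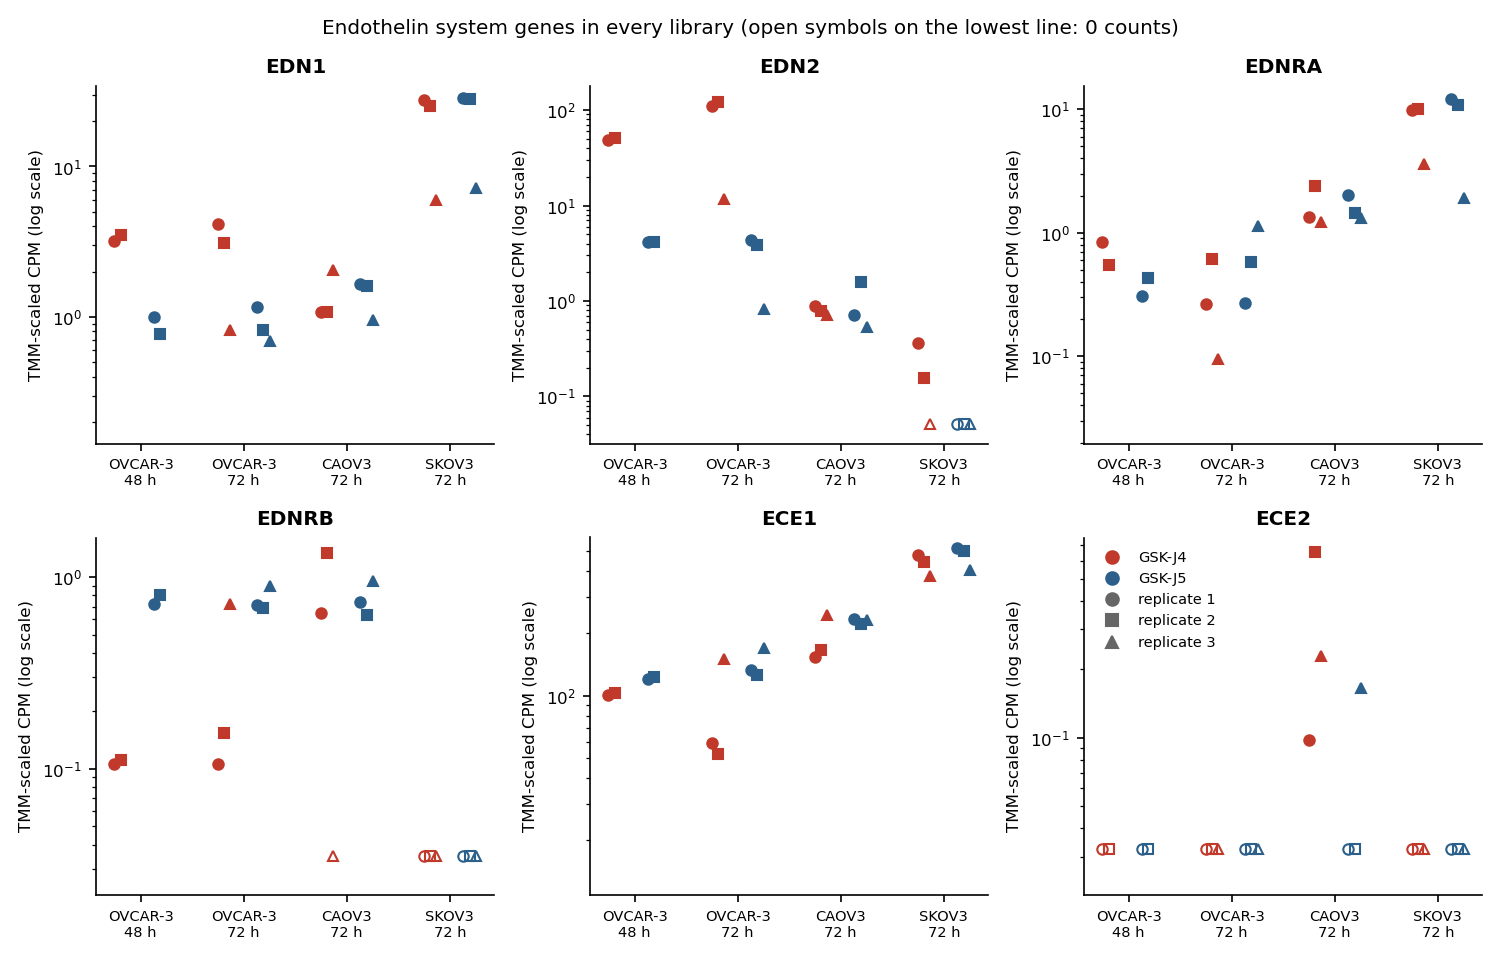
TMM-scaled CPM (log axis) of 6 endothelin system genes in every library, with GSK-J4 in red to the left of GSK-J5 in blue within each line and time. Symbols mark the replicate, open symbols on the lowest line mark 0 counts, and EDN3 is left out because it had 0 counts in all 22 libraries. EDN2 is highest in OVCAR-3 with GSK-J4, whereas EDN1, EDNRA and ECE1 are highest in SKOV3 with either compound.

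In OVCAR-3 at 48 h, EDN2 and EDN1 rose with GSK-J4, and EDNRB was lower on few counts. This comparison did not choose the genes. EDN2 had 48.9 and 51.0 CPM with GSK-J4, against 4.20 and 4.15 CPM with GSK-J5. These levels rest on 1396 and 1384 counts with GSK-J4 and on 122 and 135 counts with GSK-J5. Both GSK-J4 libraries lay far above both GSK-J5 libraries, and the replicates of a compound were close to each other. EDN2 rose 12.2-fold (log2 fold change 3.61, SE 0.27, 95% interval 2.98 to 4.23, adjusted p = 0.0052, edgeR quasi-likelihood test with Benjamini-Hochberg adjustment over all genes tested). At this time 18.9% of the 17402 genes tested were called in either direction, 11.3% as higher and 7.63% as lower.

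EDN1, the endothelin best known from vascular endothelium, moved the same way at a lower level. It had 3.22 and 3.50 CPM with GSK-J4 (92 and 95 counts), against 1.00 and 0.77 CPM with GSK-J5 (29 and 25 counts). The groups did not overlap. EDN1 rose 3.87-fold (log2 1.95, SE 0.49, 95% interval 0.82 to 3.08, edgeR adjusted p = 0.0360). For scale, the GSK-J4 libraries both lay above the GSK-J5 libraries for 38.9% and both below them for 42.8% of the genes compared.

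The receptor genes were expressed at low levels, and their fitted changes had opposite signs. EDNRB lies on chromosome 13 at 77895481 to 77975529 (ENSG00000136160.16, minus strand, 5607 bp of exon, 279 counts over all libraries), and EDNRA on chromosome 4 at 147480917 to 147544954 (ENSG00000151617.17, plus strand, 4238 bp, 2010 counts). Of the EDNRB exon bases 1.43% overlap an antisense gene, which had at most 1 count in a library. EDNRB had 3 and 3 counts with GSK-J4 (0.11 and 0.11 CPM), against 21 and 26 counts with GSK-J5 (0.72 and 0.80 CPM). Both GSK-J4 libraries lay below both GSK-J5 libraries. EDNRB reached the low-count filter through its GSK-J5 libraries, not through the GSK-J4 libraries of 48 h, and its fitted value is to be read with that in view: 6.69-fold lower with GSK-J4 (log2 -2.74, SE 0.69, 95% interval -4.32 to -1.16, edgeR adjusted p = 0.0353). EDNRA had 0.84 and 0.55 CPM with GSK-J4, against 0.31 and 0.43 CPM with GSK-J5. The groups did not overlap, but the difference did not pass the test (log2 0.93, SE 0.93, 95% interval -1.21 to 3.07, edgeR adjusted p = 0.457). In bulk RNA, fewer cells with a transcript and less transcript per cell cannot be told apart.

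ECE1 cleaves big endothelins and had by far the most reads of the family (154808 counts). It lies on chromosome 1 at 21217247 to 21345572 on the minus strand (ENSG00000117298.16), with 7333 bp of exon, 3.27% of it shared with an antisense gene that had at most 10 counts in a library. ECE1 had 101 and 103 CPM with GSK-J4, against 121 and 124 CPM with GSK-J5. The GSK-J4 libraries lay below the GSK-J5 libraries by a small margin, and the difference did not pass the test (log2 -0.23, SE 0.22, 95% interval -0.74 to 0.27, edgeR adjusted p = 0.426). It passed in the fit without the 72 h GSK-J4 replicate 3 (adjusted p = 0.0425) and in the fit without the 72 h GSK-J5 replicate 3 (0.0382), at the same log2 fold change of -0.23. It also passed in the 4 libraries of 48 h alone (0.0281) and in replicates 1 and 2 of both times (0.0322), with a log2 fold change of -0.24. ECE2, a related enzyme known to work at acidic pH (chromosome 3 at 184276011 to 184293031, plus strand, ENSG00000145194.18), had no count in any OVCAR-3 library.

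The calls of EDN2 and EDN1 at 48 h, and the fitted value of EDNRB, depend on the few libraries of that time. Their spread was estimated together with the 72 h libraries. EDNRB reached the low-count filter through its GSK-J5 libraries, so its adjusted p is given as a value only. Without the GSK-J4 replicate 1 the edgeR adjusted p was 0.0598 for EDN2, 0.15 for EDN1 and 0.172 for EDNRB. Without the GSK-J4 replicate 2 it was 0.0625 for EDN2, 0.164 for EDN1 and 0.177 for EDNRB. Leaving out the GSK-J5 replicate 1 gave 0.143 for EDN2, 0.17 for EDN1 and 0.169 for EDNRB, and leaving out the GSK-J5 replicate 2 gave 0.141 for EDN2, 0.197 for EDN1 and 0.176 for EDNRB. Leaving replicate 1 out of every group gave adjusted p = 1 for EDN1 and EDNRB and 0.00678 for EDN2, and leaving out replicate 2 gave 1 for EDN1 and EDNRB and 0.00301 for EDN2. Without the 72 h GSK-J5 replicate 1, EDN1 (0.0574) and EDNRB (0.0566) were not called, and neither was EDNRB without the 72 h GSK-J5 replicate 2 (0.0565). The directions held in all 22 alternative fits, with log2 fold changes of 3.39 to 3.64 for EDN2, 1.72 to 2.20 for EDN1 and -2.95 to -2.60 for EDNRB. In the fit of the 4 libraries of 48 h alone, the adjusted p was 4.82e-08 for EDN2, 0.000256 for EDN1 and 0.00246 for EDNRB. That fit called 10206 genes, against 3296 in the fit of all 10 OVCAR-3 libraries.

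**Figure D2:**
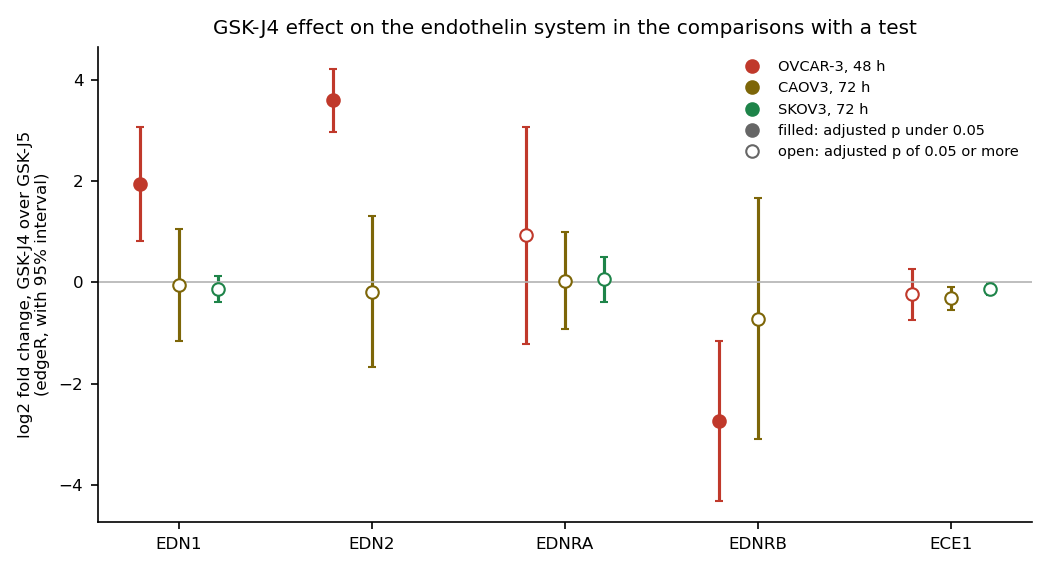
Fitted log2 fold change of GSK-J4 over GSK-J5 with its 95% interval (edgeR, y axis) for the genes that passed the filter on low counts, in OVCAR-3 at 48 h (red), CAOV3 at 72 h (olive) and SKOV3 at 72 h (green). Filled points have an adjusted p under 0.05: EDN2 at 3.61, EDN1 at 1.95 and EDNRB at -2.74, all in OVCAR-3 at 48 h. EDNRB reached the filter through its GSK-J5 libraries.

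At 72 h in OVCAR-3, the comparison in which EDN2 was picked out, EDN2 had 111, 121 and 11.8 CPM with GSK-J4, against 4.32, 3.85 and 0.83 CPM with GSK-J5. All the GSK-J4 libraries lay above all the GSK-J5 libraries, and replicate 3 was the lowest of its group for both compounds. Over the libraries of the same number, the GSK-J4 level was 25.7, 31.5 and 14.2 times the GSK-J5 level, and the fitted difference was 23.3-fold (log2 4.54, SE 0.30). Of the 16802 genes fitted at this time, 0.0298% were called (5 genes), while 7244 had an unadjusted p under 0.05 by the edgeR test. Nothing is read from this count, since it belongs to the comparison that chose the genes. The same holds for the groups that did not overlap, as the GSK-J4 libraries all lay above the GSK-J5 libraries for 23.2% and below them for 16.1% of the genes compared.

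The other members at 72 h depended on the replicate. EDN1 had 4.13, 3.08 and 0.82 CPM with GSK-J4, against 1.16, 0.82 and 0.69 CPM with GSK-J5. Replicates 1 and 2 with GSK-J4 stood above all other libraries, and replicate 3 with GSK-J4 lay within the GSK-J5 range, with ratios of 3.57, 3.74 and 1.18 in the same-numbered pairs. EDNRB had 2, 3 and 23 counts with GSK-J4, against 21, 20 and 26 counts with GSK-J5. Again replicates 1 and 2 with GSK-J4 were low and replicate 3 was not, so the groups overlapped. EDNRA had 0.26, 0.62 and 0.09 CPM with GSK-J4, against 0.27, 0.58 and 1.14 CPM with GSK-J5, with overlapping groups and, in replicate 3, a low GSK-J4 and a high GSK-J5 value. ECE1 had 59.0, 52.2 and 151 CPM with GSK-J4, against 134, 125 and 170 CPM with GSK-J5. The GSK-J4 level was 0.44, 0.42 and 0.89 times the GSK-J5 level of the same number, so replicate 3 again showed the smallest difference.

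Between the times, within replicates 1 and 2, EDN2 was higher at 72 h than at 48 h with GSK-J4 and alike at both times with GSK-J5. Its mean was 49.9 CPM at 48 h and 116 CPM at 72 h with GSK-J4, a ratio of 2.33, and the ratio with GSK-J5 was 0.979. The corresponding ratios of 72 h to 48 h for EDN1 were 1.07 with GSK-J4 and 1.12 with GSK-J5. For ECE1 they were 0.546 with GSK-J4 and 1.06 with GSK-J5. These differences between the times were not tested, because the 72 h values belong to the comparison that chose the genes.

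**Figure D3:**
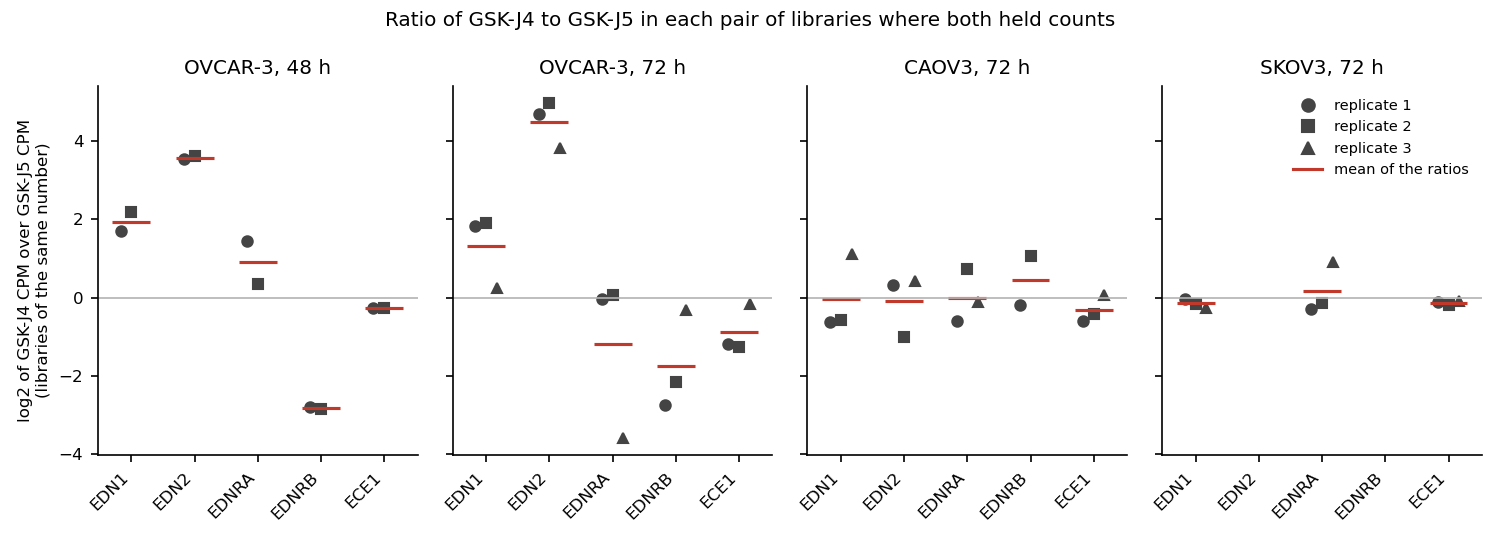
log2 of the GSK-J4 level over the GSK-J5 level (y axis) in libraries of the same replicate number, for each line and time, drawn where both libraries held counts; the red bar is the mean of the ratios. In OVCAR-3 the EDN2 points lie between 3.54 and 3.62 at 48 h and between 3.83 and 4.98 at 72 h. The points of all genes drawn in CAOV3 and SKOV3 lie between -1.01 and 1.11. EDN2 has no point in SKOV3, where it had 0 counts with GSK-J5.

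In CAOV3 none of the endothelin genes passed the test at 72 h. By the edgeR test 0.315% of 17137 genes were called (54 genes, with 2801 at an unadjusted p under 0.05, and 668 called by DESeq2). EDN2 had 0.88, 0.78 and 0.72 CPM with GSK-J4, against 0.71, 1.57 and 0.54 CPM with GSK-J5. The groups overlapped, and the 95% interval of the log2 fold change ran from -1.67 to 1.31 (estimate -0.18, SE 0.71) with an edgeR adjusted p of 0.941. EDN1 had 1.07, 1.08 and 2.05 CPM with GSK-J4, against 1.66, 1.6 and 0.95 CPM with GSK-J5. Replicates 1 and 2 were lower with GSK-J4 and replicate 3 was higher, with a fitted log2 fold change of -0.05 (SE 0.53, 95% interval -1.16 to 1.07).

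Both receptors were present in CAOV3 at low levels. EDNRA had 1.33, 2.38 and 1.22 CPM with GSK-J4, against 2.03, 1.44 and 1.32 CPM with GSK-J5, with overlapping groups and a fitted log2 fold change of 0.04 (SE 0.46, 95% interval -0.93 to 1.00). EDNRB had 20, 41 and 0 counts with GSK-J4, against 24, 23 and 23 counts with GSK-J5. One GSK-J4 library held no count while another held the most of all CAOV3 libraries, and the fitted log2 fold change of -0.72 carried an SE of 1.14.

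ECE1 in CAOV3 was lower with GSK-J4 in the first library set alone. It had 154, 166 and 246 CPM with GSK-J4, against 235, 222 and 233 CPM with GSK-J5. Replicates 1 and 2 with GSK-J4 lay below every GSK-J5 library, and replicate 3 lay above them. Over all 3 replicates the difference did not pass the test (log2 -0.31, SE 0.11, 95% interval -0.54 to -0.08, edgeR adjusted p = 0.158). It passed without the GSK-J4 replicate 3 (log2 -0.53, adjusted p = 3.3e-06) and without the GSK-J5 replicate 3 (log2 -0.53, 2.45e-06). With all 6 libraries it passed when the low-count filter was dropped (log2 -0.31, 0.0280). ECE2 had 3, 20 and 6 counts with GSK-J4, against 0, 0 and 4 counts with GSK-J5. Most of these reads came from 1 library, and the ratio of 29 to 4 counts was 7.68 with a counting interval of 2.70 to 30.1 (95%), which does not cover the spread between libraries. For no member were the CAOV3 groups apart, whereas the GSK-J4 libraries all lay above the GSK-J5 libraries for 5.36% and below them for 6.98% of the genes compared. In the annotation 62.7% of the ECE2 exon bases also belong to a readthrough gene, EEF1AKMT4-ECE2, which had 0 counts.

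In SKOV3 the endothelin genes differed little between the compounds, and none passed the test at 72 h. By edgeR 0.0412% of 16981 genes were called (7 genes, with 594 at an unadjusted p under 0.05, 19 called by DESeq2, and 22 by edgeR with the replicate number as a block). EDN1 had 27.9, 25.3 and 6.02 CPM with GSK-J4, against 28.5, 28.1 and 7.19 CPM with GSK-J5. The replicate number separated these values far more than the compound did, and the log2 fold change was -0.14 (SE 0.12, 95% interval -0.39 to 0.12; -0.09 without replicate 3). EDN2 had 12, 6 and 0 counts with GSK-J4, against 0, 0 and 0 counts with GSK-J5. The pooled GSK-J4 level was at least 5.38-fold higher than the 3 counts that a total of 0 allows in the GSK-J5 libraries together, which covers counting error only, and 1 of the GSK-J4 libraries also had no count. EDN2 was below the filter there and was not tested.

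EDNRA in SKOV3 had 9.84, 9.97 and 3.57 CPM with GSK-J4, against 12.1, 10.9 and 1.91 CPM with GSK-J5. Replicates 1 and 2 were lower with GSK-J4 and replicate 3 was higher, so the fitted log2 fold change of 0.06 (SE 0.21, 95% interval -0.38 to 0.50) turned to -0.22 without replicate 3. ECE1 had 478, 441 and 380 CPM with GSK-J4, against 518, 500 and 406 CPM with GSK-J5. It was lower with GSK-J4 in every same-numbered pair while the groups overlapped, and the difference did not pass the test (log2 -0.13, SE 0.06, 95% interval -0.25 to -0.01, edgeR adjusted p = 0.999). For no member were the SKOV3 groups apart, against 1.61% of genes with all GSK-J4 libraries above and 1.57% with all below. EDNRB and ECE2 had no count in any SKOV3 library.

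The effect of GSK-J4 in CAOV3 minus that in SKOV3 was tested directly in 1 fit of the 18 libraries of 72 h. Of 20252 genes 0% were called by edgeR (1077 had an unadjusted p under 0.05, and DESeq2 called 7). For the endothelin genes the log2 difference was 0.08 for EDN1 (95% interval -0.94 to 1.11), -0.09 for EDNRA (-1.59 to 1.41) and -0.19 for ECE1 (-0.71 to 0.34). EDN2 had 18 counts in SKOV3 with GSK-J4 and 0 with GSK-J5. It was not called (edgeR adjusted p = 0.496), but was without the low-count filter (0.0029) and without replicate 3 (0.0389). The fitted EDN2 difference rests on a group without counts, so nothing is read from these calls. The contrast itself leaves OVCAR-3 out, since its 72 h values chose the genes. The OVCAR-3 libraries of 72 h were still among the 18 fitted, and so entered the filter, the scaling and the estimate of spread.

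The lines differed in which endothelin genes they expressed with GSK-J5 at 72 h. SKOV3 had the highest EDN1, EDNRA and ECE1 levels and no EDN2 or EDNRB, OVCAR-3 had the highest EDN2 level, and CAOV3 stood between them for most genes. Most genes tested were called in each pair of lines (54.5% for OVCAR-3 against CAOV3, 57.5% for OVCAR-3 against SKOV3 and 59.8% for CAOV3 against SKOV3), so a call is common here. The OVCAR-3 GSK-J5 libraries are also the controls of the comparison that chose the genes.

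EDN1 averaged 0.89 ± 0.24 CPM in OVCAR-3, 1.40 ± 0.40 CPM in CAOV3 and 21.3 ± 12.2 CPM in SKOV3 (SD, n = 3 each). Every SKOV3 library lay above every library of the other lines. EDN1 was 21.0-fold lower in OVCAR-3 than in SKOV3 (log2 -4.39, SE 0.36, edgeR adjusted p = 3.76e-06) and 13.7-fold lower in CAOV3 than in SKOV3 (log2 -3.77, SE 0.34, 7.65e-06). OVCAR-3 and CAOV3 did not differ beyond their spread (log2 -0.62, SE 0.35, adjusted p = 0.161; 0.0431 without replicate 3).

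EDN2 averaged 3.0 ± 1.89 CPM in OVCAR-3 and 0.94 ± 0.56 CPM in CAOV3, and SKOV3 had no count. The OVCAR-3 replicate 3 lay within the CAOV3 range, so the groups overlapped. This difference is given without a test, because the OVCAR-3 libraries belong to the comparison that chose EDN2. Against the 3 counts allowed over the SKOV3 libraries, EDN2 was at least 87.5-fold higher in OVCAR-3 (263 counts against 0) and at least 29.1-fold higher in CAOV3 (93 counts against 0).

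EDNRA averaged 0.67 ± 0.44 CPM in OVCAR-3, 1.6 ± 0.38 CPM in CAOV3 and 8.31 ± 5.57 CPM in SKOV3. The SKOV3 replicates 1 and 2 were the highest, and its replicate 3 lay within the CAOV3 range. EDNRA was 10.9-fold lower in OVCAR-3 than in SKOV3 (log2 -3.44, SE 0.76, edgeR adjusted p = 0.0032) and 4.87-fold lower in CAOV3 than in SKOV3 (log2 -2.28, SE 0.68, 0.0148). Both calls were lost without replicate 1 (0.0747 for OVCAR-3 and 0.118 for CAOV3) and without replicate 2 (0.0883 for OVCAR-3 and 0.18 for CAOV3). OVCAR-3 and CAOV3 did not differ beyond their spread (log2 -1.16, SE 0.72, adjusted p = 0.198), except without replicate 3 (log2 -1.98, 0.00221). EDNRB averaged 0.77 ± 0.11 CPM in OVCAR-3 and 0.77 ± 0.16 CPM in CAOV3 (95% interval of the log2 difference -1.73 to 1.72) and had no count in SKOV3, which puts it at least 22.3-fold higher in OVCAR-3 and at least 21.9-fold higher in CAOV3 than the SKOV3 floor of 3 counts.

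ECE1 averaged 143 ± 23.9 CPM in OVCAR-3, 230.0 ± 6.94 CPM in CAOV3 and 475 ± 60.3 CPM in SKOV3, and the 3 lines did not overlap. It was 3.29-fold lower in OVCAR-3 than in SKOV3 (log2 -1.72, SE 0.15, edgeR adjusted p = 6.32e-06), 2.05-fold lower in CAOV3 than in SKOV3 (log2 -1.04, SE 0.15, 0.000167) and 1.6-fold lower in OVCAR-3 than in CAOV3 (log2 -0.68, SE 0.15, 0.0029). The last of these was lost without replicate 1 (0.0867) and without replicate 2 (0.0844).

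**Figure D4:**
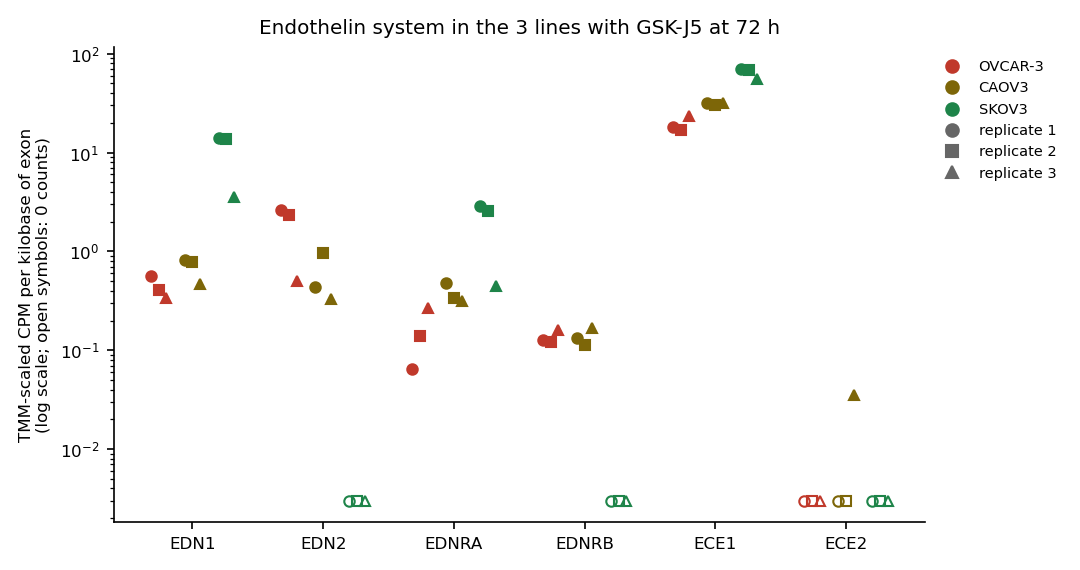
TMM-scaled CPM per kilobase of exon (log axis) of 6 endothelin system genes in the GSK-J5 libraries of 72 h, with OVCAR-3 in red, CAOV3 in olive and SKOV3 in green; symbols mark the replicate and open symbols mark 0 counts. ECE1 is the highest gene in every line, and EDN2 and EDNRB had 0 counts in SKOV3.

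Per kilobase of exon, ECE1 had the highest mean level of the members in every group but the OVCAR-3 groups with GSK-J4. Its level was 13.9 CPM per kb with GSK-J4 and 16.7 CPM per kb with GSK-J5 in OVCAR-3 at 48 h, when EDN2 was at 30.5 CPM per kb with GSK-J4 and 2.55 CPM per kb with GSK-J5. At 72 h in OVCAR-3, EDN2 was at 49.7 CPM per kb with GSK-J4 and 1.83 CPM per kb with GSK-J5, and ECE1 at 11.9 CPM per kb with GSK-J4 and 19.5 CPM per kb with GSK-J5. The GSK-J4 mean of EDN2 comes from replicates 1 and 2 (67.9 and 74.0 CPM per kb), since in replicate 3 EDN2 was at 7.19 CPM per kb and ECE1 at 20.6 CPM per kb. In SKOV3, EDN1 was at 9.70 CPM per kb with GSK-J4 and 10.5 CPM per kb with GSK-J5.

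EDN2 was the leading ligand RNA in OVCAR-3, and EDN1 was in SKOV3. Of the summed EDN1 and EDN2 levels per kilobase in OVCAR-3 at 48 h, EDN2 made up 94.8 to 95% with GSK-J4 and 83.9 to 87.0% with GSK-J5. At 72 h its share in OVCAR-3 was 94.7 to 98.0% with GSK-J4 and 59.8 to 85.3% with GSK-J5. In CAOV3 the share of EDN2 was 30.4 to 50.4% with GSK-J4 and 34.6 to 54.9% with GSK-J5. In SKOV3 it was at most 1.61% with GSK-J4 and 0% with GSK-J5.

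The balance of the receptors also depended on the group. The mean EDNRA level per kilobase in OVCAR-3 at 48 h was 8.55 times the EDNRB level with GSK-J4 and 0.643 times with GSK-J5, on 6 EDNRB counts in the GSK-J4 libraries together. At 72 h in OVCAR-3 the ratio in replicates 1, 2 and 3 was 3.31, 5.29 and 0.173 with GSK-J4. In the GSK-J5 libraries it was 0.504, 1.12 and 1.68, so replicate 3 ran the other way from replicates 1 and 2. In CAOV3 with GSK-J4 it was 2.71 and 2.36 in replicates 1 and 2, and replicate 3 had no EDNRB count. With GSK-J5 in CAOV3 it was 3.64, 2.99 and 1.84 in replicates 1, 2 and 3. The ratio of the CAOV3 group means was 3.28 with GSK-J4, where the library without EDNRB counts is included, and 2.73 with GSK-J5. In SKOV3 only EDNRA had reads.

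Genes around the endothelin system were taken from 6 pathway lists with 81 entries: prohormone processing and endothelin clearance, the other peptidases of the ECE family (M13), endothelin receptor signalling, transcription factors known to act on the EDN1 promoter, hypoxia-inducible genes, and other vasoactive peptides and their receptors. In OVCAR-3 at 48 h 64 entries were tested, of which 15 rose and 5 fell, beside 11.3% higher and 7.63% lower over all genes tested. In CAOV3 (65 entries tested) and SKOV3 (61 tested) none was called, beside 0.315% and 0.0412% of all genes tested. For the difference between these lines none of 71 was called, beside 0% of all genes. In OVCAR-3 at 72 h none of 64 entries was called, beside 0.0298% of all genes. With so few calls over all genes, these counts say nothing particular about the lists. The calls at 48 h carry the same dependence on single libraries as those of EDN1 and EDN2: the number of genes called ran from 0 to 10171 over the fits that leave out replicates or libraries.

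Receptor signalling was the largest list. Of its 25 genes 24 were tested, 7 rose and none fell, with a median log2 fold change of 0.34, against -0.03 over all genes tested. GNA13, a G protein alpha subunit, averaged 267 ± 43.2 CPM with GSK-J4 and 100.4 ± 7.78 CPM with GSK-J5 (SD, n = 2 each, log2 1.44, SE 0.34, edgeR adjusted p = 0.0321). PLCB4, a phospholipase C of the Gq pathway, averaged 69.0 ± 8.08 CPM with GSK-J4 and 33.9 ± 3.31 CPM with GSK-J5 (log2 1.05, SE 0.28, 0.0407). Of the transcription factors all 11 were tested and 2 rose, with a median of 0.28. GATA2, a zinc finger factor known to drive EDN1 in endothelial cells, averaged 8.89 ± 0.34 CPM with GSK-J4 and 2.92 ± 0.04 CPM with GSK-J5 (log2 1.63, SE 0.25, edgeR adjusted p = 0.0161). JUN, an AP-1 subunit, averaged 265 ± 11.4 CPM with GSK-J4 and 189 ± 8.07 CPM with GSK-J5 (log2 0.52, SE 0.15, 0.0444).

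The hypoxia-inducible genes moved in both directions. Of 9 genes tested 2 rose and 3 fell, with a median of -0.09. VEGFA, the vascular growth factor, averaged 148 ± 3.88 CPM with GSK-J4 and 40.3 ± 3.50 CPM with GSK-J5 (log2 1.90, SE 0.36, edgeR adjusted p = 0.0217). EGLN3, an oxygen-sensing prolyl hydroxylase, averaged 19.1 ± 0.46 CPM with GSK-J4 and 55.7 ± 4.18 CPM with GSK-J5 (log2 -1.52, SE 0.42, 0.0431). Among the vasoactive genes 11 of 23 were tested, 4 rose and 2 fell, with a median of -0.57. CALCB, which encodes a calcitonin gene-related peptide, a vasodilator, averaged 33.1 ± 0.24 CPM with GSK-J4 and 1.38 ± 0.29 CPM with GSK-J5 (log2 4.61, SE 1.01, edgeR adjusted p = 0.0274). APLN, which encodes apelin, had no count with GSK-J4 and 56 counts with GSK-J5, at least 16.9-fold lower with GSK-J4 against a floor of 3 counts, and was tested because of its GSK-J5 level.

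Genes of prohormone processing, endothelin clearance and the other M13 peptidases showed no call at 48 h, when 18.9% of all genes tested were called. Of the 7 genes of prohormone processing and clearance 5 were tested and none passed, with a median of 0.18. FURIN, the convertase that makes big endothelin, was among them. Of the 5 other M13 peptidases 4 were tested and none passed, with a median of -0.68.

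**Figure D5:**
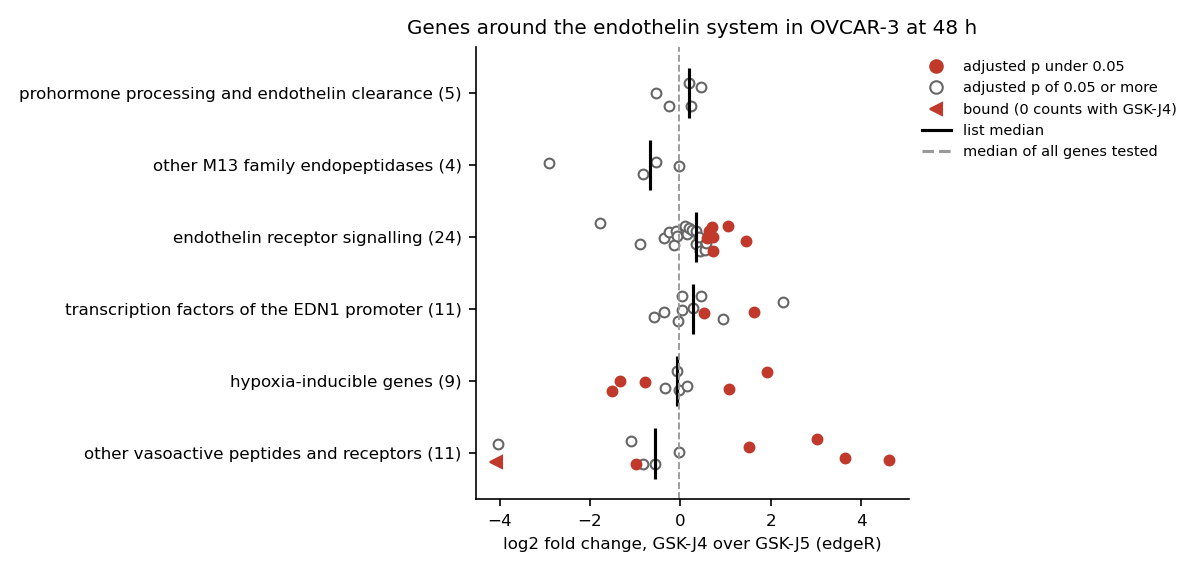
log2 fold change of GSK-J4 over GSK-J5 (x axis, edgeR) in OVCAR-3 at 48 h for the tested genes of 6 lists, with the number tested in brackets. Filled red points have an adjusted p under 0.05, the triangle is APLN at its bound, black bars are list medians and the dashed line is the median of all genes at -0.03. All 7 called receptor signalling genes lie to the right of it.

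The same lists differed strongly between the lines with GSK-J5 at 72 h, as most genes did. Of 69 entries tested, 24 were higher and 21 lower in OVCAR-3 than in CAOV3, beside 26.9% higher and 27.6% lower over all genes tested. In OVCAR-3 against SKOV3, 16 were higher and 25 lower, beside 29.4% higher and 28% lower over all genes. In CAOV3 against SKOV3, 20 were higher and 30 lower, beside 30.4% higher and 29.4% lower over all genes. MME, the neprilysin that degrades endothelins, was lower in OVCAR-3 than in CAOV3 (log2 -3.52, SE 0.37, edgeR adjusted p = 2.48e-05) and higher in OVCAR-3 than in SKOV3 (log2 3.74, SE 0.45, 6.23e-05) and in CAOV3 than in SKOV3 (log2 7.26, SE 0.47). PCSK6, a furin-type convertase, was lower in OVCAR-3 than in CAOV3 (log2 -7.21, SE 0.52) and in SKOV3 (log2 -3.94, SE 0.50) and higher in CAOV3 than in SKOV3 (log2 3.27, SE 0.40). RGS5, which damps Gq and Gi signals, was lower than in SKOV3 in OVCAR-3 (log2 -4.20, SE 0.56) and in CAOV3 (log2 -6.51, SE 0.67). GATA2 was lower in OVCAR-3 than in CAOV3 (log2 -5.80, SE 0.26) and higher in CAOV3 than in SKOV3 (log2 5.19, SE 0.25). VEGFA was lower than in SKOV3 in OVCAR-3 (log2 -2.70, SE 0.16) and in CAOV3 (log2 -3.11, SE 0.16). All these genes passed edgeR's adjusted threshold of 0.05 in the comparisons named.

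The targets of GSK-J4 were measured too. KDM6B averaged 170 ± 25.9 CPM with GSK-J4 and 93.7 ± 10.9 CPM with GSK-J5 in OVCAR-3 at 48 h and rose (log2 0.89, SE 0.16, edgeR adjusted p = 0.0188), while KDM6A did not pass (log2 0.33, SE 0.16, 0.161). In CAOV3 (log2 -0.25 for KDM6A and -0.46 for KDM6B) and SKOV3 (0.00 for both) neither was called.

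Markers of other cell types were summed because endothelial cells, fibroblasts and melanocytes are known sources of this system. The 6 endothelial markers summed to between 0.85 and 9.64 CPM over the libraries of every group, and in OVCAR-3 at 48 h to 1.58 to 1.96 CPM with GSK-J4, against 5.13 to 5.72 CPM with GSK-J5. The 9 epithelial and ovarian carcinoma markers summed there to 6385 to 6585 CPM with GSK-J4, against 10418 to 10574 CPM with GSK-J5. Of these 9 markers 1 rose and 4 fell, among them WT1 (log2 -2.08, SE 0.59, edgeR adjusted p = 0.0461) and KRT19 (log2 -1.59, SE 0.28, 0.0183). Over all genes tested at 48 h, 11.3% were called higher and 7.63% lower. In OVCAR-3 at 48 h the 5 melanocyte and neural crest markers summed to 21.0 to 22.3 CPM with GSK-J4, against 5.38 to 6.06 CPM with GSK-J5. EDN2 and EDN1 were higher with GSK-J4 there too. At 72 h in OVCAR-3 the sums were 8.36 to 14.9 CPM with GSK-J4, against 6.37 to 8.57 CPM with GSK-J5. In CAOV3 they were 32.5 to 39.4 CPM with GSK-J4 and 32.8 to 38.9 CPM with GSK-J5. In SKOV3 they were 16.4 to 40.9 CPM with GSK-J4 and 18.2 to 40.2 CPM with GSK-J5. In OVCAR-3 at 48 h nearly all of the sum was MITF (20.4 CPM with GSK-J4 and 4.52 CPM with GSK-J5, log2 2.20, SE 0.31, edgeR adjusted p = 0.0140), while SOX10 had no count with GSK-J4. DCT, a melanin synthesis enzyme, had 20 counts with GSK-J4 and 0 with GSK-J5, at least 7.37-fold higher against a floor of 3 counts. It was tested because of its GSK-J4 level. Nothing is read from the DCT call. Of the 3 melanocyte markers tested, MITF was the other one called, beside 11.3% called higher over all genes tested. In the same libraries the 7 fibroblast and smooth muscle markers summed to 12.5 to 14.1 CPM with GSK-J4, against 42.2 to 42.6 CPM with GSK-J5, mostly COL1A1, which did not pass the test (adjusted p = 0.0692). That list was highest in SKOV3, at 424 to 693 CPM with GSK-J4 and 477 to 591 CPM with GSK-J5, the line with the highest EDN1 and EDNRA levels. The 5 leukocyte markers summed to 55.1 to 114 CPM in CAOV3, most of it CD14, with PTPRC and CD3E at 0. The part of these markers in the endothelin results was not tested.

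The genes whose levels ran most like those of a member were ranked by Pearson's r of log2(CPM + 0.5) over the 22 libraries, which fall into 3 lines and share library sets, so the values are given as a description. For EDN2 these were PLK2 (r = 0.983), NPR2 (0.978), MTA1 (0.978), TVP23B (0.976) and EIF2A (0.972) among 13153 genes. Within the 10 OVCAR-3 libraries they were EPB41L5 (0.997), PLPBP (0.995), TVP23B (0.995), TSG101 (0.995) and DIRAS1 (0.994). For EDN1 they were PTPRB (0.967), MAP4K4 (0.964), AP3S1 (0.959), FBN1 (0.955) and NGEF (0.955), which share with EDN1 a high level in SKOV3. For ECE1 they were SDC3, TGOLN2, PCDHB2, KIAA0513 and ELK3, with r between 0.976 and 0.977. For ECE2 the highest r was 0.771 (PEX7), on a gene with counts in 4 libraries.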

How the data were processed

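RNA sequencing counts came from 14 samples in the labels, which hold 22 libraries in 3 deposited tables, one per cell line. The deposited values are raw counts, whole numbers per gene for 58825 versioned Ensembl identifiers, which the authors made without normalization, as the values show. Per the submitters' processing notes, STAR, DESeq2 and the build GRCh38 (hg38) were used. For the counting tool, its strand setting and its annotation, nothing is stated in the labels or headers, and reads of overlapping and antisense genes cannot be told apart. The header of 1 OVCAR-3 GSK-J4 column gives time and replicate in a shortened form and was taken for 72 h, replicate 3, the single GSK-J4 sample of that line with this number in the labels. Symbols came from a gene name table (58472 identifiers) and GENCODE 29 (345), and 8 had none. Coordinates and exon lengths came from GENCODE 29, whose gene versions differ in part from those in the deposited tables, so levels per kilobase are approximate.

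Fits were run with edgeR 4.0.16 in R 4.3.3: filterByExpr with a minimum count of 10, TMM, glmQLFit (robust) and glmQLFTest, with the library set as a covariate and Benjamini-Hochberg adjustment over all genes tested at a threshold of 0.05. The 48 h effect came from all 10 OVCAR-3 libraries, the effects of CAOV3 and SKOV3 from the 6 libraries of each line, their difference from the 18 libraries of 72 h, and the line levels from the 9 GSK-J5 libraries of 72 h. Log2 fold changes use a prior count of 0.125. The SE was derived from the F statistic of each test, so it and the 95% interval are approximate. An edgeR fit of the 72 h design of each line was tried on simulated counts that held no difference between library sets. The 48 h fit was not tried in this way. No 2 libraries of a group agreed within sampling noise. Where a group held no count, folds are bounds against 3 counts over the group.

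The members, the lists, the tests and the alternatives were chosen with earlier results of these data known. All 7 members, KDM6A and KDM6B are named, and from each list and comparison the 2 called genes with the largest change; in comparisons between lines a part of these is named. Filters passed EDN1, EDN2, EDNRA, EDNRB and ECE1 in OVCAR-3 and CAOV3, and EDN1, EDNRA and ECE1 in SKOV3. In SKOV3 the deviations from the group means correlated at 0.670, 0.678 and 0.899 in the same-numbered pairs, which follows the library set. Replicate 1 of one compound correlated with replicate 2 of the other at 0.564 and 0.570. Pairing by number within the first set is therefore not shown. In OVCAR-3 and CAOV3 at 72 h at least 1 pair was below 0.1. Alternatives covered DESeq2 1.42.0, limma 3.58.1 (voom), other scaling, no filter, no set term, a replicate block, and leaving out each replicate and library. A fit on library totals without TMM was added after seeing the data. Motifs were searched in RefSeq windows of GRCh38.p14.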

Additional observations from a re-analysis of the deposited data

Results flagged for a closer look

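EDN1 was higher with GSK-J4 in every same-numbered pair of OVCAR-3 libraries at 72 h, with a mean log2 ratio of 1.33, and lower in every pair of SKOV3 libraries at 72 h, with a mean log2 ratio of -0.15. The opposite direction in all pairs marks this result. Some ratios were close to 1: 1.18 in OVCAR-3 replicate 3 (26 against 20 counts) and 0.979 in SKOV3 replicate 1. In OVCAR-3 at 72 h the same-numbered libraries correlated at -0.065, 0.026 and 0.003, so these pairs are matched by number only. The difference between the lines was not tested, because OVCAR-3 at 72 h is the comparison that chose the genes, and the SKOV3 change itself did not pass the test.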

How the results depend on the processing

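In OVCAR-3 at 48 h the directions of EDN1, EDN2 and EDNRB held in all 22 alternatives, whereas the number of genes called (3296) was 2186 on library totals without TMM, 5864 by DESeq2's Wald test, 811 without the library set term, 10206 in the 4 libraries of 48 h alone and 10076 in replicates 1 and 2 of both times. It ran from 0 to 10171 with replicates or libraries left out, where an arm with 1 sample is assumed to vary like the other groups. Without the set term the adjusted p was 0.066 for EDN2, 0.0967 for EDN1 and 0.0896 for EDNRB. Library totals without TMM, an alternative chosen after seeing the data, moved the median log2 fold change of all genes to -0.24 at 48 h (-0.03 with TMM) and to -0.47 at 72 h in OVCAR-3 (-0.08 with TMM), with the member directions kept. In OVCAR-3 at 72 h the count of 5 genes was 3 on library totals, 6334 by DESeq2, 1326 without the filter, 1 without the set term and 7618 in a fit of all 10 OVCAR-3 libraries, and 0 to 11823 with libraries left out. The CAOV3 count of 54 was 572 by voom, 668 by DESeq2, 832 without the filter, 0 without the set term and 0 to 2673 with libraries left out. The SKOV3 count of 7 was 19 by voom and by DESeq2, 31 without the filter, 0 without the set term and 4 to 38 with libraries left out. The count of 0 for CAOV3 minus SKOV3 was 7 by DESeq2, 87 without the filter and 0 to 448 with a replicate left out. With a replicate left out, the counts between lines were 6162 to 11608 for OVCAR-3 against CAOV3, 6728 to 12081 for OVCAR-3 against SKOV3 and 7195 to 12543 for CAOV3 against SKOV3. The causes of these moves were not tested.

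With the replicate number as a block, the genes called were 606 in OVCAR-3 at 48 h, 0 in OVCAR-3 at 72 h, 0 in CAOV3 and 22 in SKOV3. At 48 h the block left EDN2 called (adjusted p = 0.0292) and not EDN1 (0.066) or EDNRB (0.0691), and it changed no other call of a member. At 48 h the same-numbered libraries correlated at 0.289, but 2 pairs do not show that the numbers pair the samples.

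Of the member log2 fold changes, these changed sign, none of them called by the edgeR test. EDNRA in SKOV3 was -0.11 by voom and -0.093 without the set term, and -0.22 to 0.27 with libraries left out. EDNRA in CAOV3 minus SKOV3 was 0.13 without the set term, and -0.64 to 0.30 with a replicate left out, as EDN1 was from -0.53 to 0.46. EDNRB in OVCAR-3 against CAOV3 was 0.051 without the filter and -0.041 to 0.050 with a replicate left out. In CAOV3 the ranges with libraries left out were -0.62 to 0.27 for EDN1, -0.49 to 0.38 for EDN2, -0.35 to 0.34 for EDNRA and -1.99 to 0.51 for EDNRB, and EDNRA in OVCAR-3 at 72 h ran from -1.88 to 0.12. The cause was not tested. EDNRB, with at most 41 counts in a library, and ECE2, with at most 20, are limited by depth.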
